A study of Mus musculus with 217 samples.

Results

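The comparison described here asked what remained changed in the striatum of 6-month-old mice whose mutant huntingtin gene had been expressed until 2 months of age and lowered since then. LacQ140_2M mice carried 1 normal *Htt* allele and 1 knock-in allele with an expanded CAG repeat (140Q) and *Lac* operator sequences (Hdh LacO-140Q/+), and received IPTG from embryonic day 5 until 2 months, so that they had been off IPTG for 4 months at the time of collection. WT mice (Hdh LacO-+/+) had no expanded allele and never received IPTG. All mice in these groups were on a C57BL/6 background and carried the beta-actin-driven LacIR transgene, which encodes the *Lac* repressor in all tissues. Members were the right-striatum RNA-seq libraries of both groups, taken by genotype, treatment, tissue and age, which gave 20 of the 217 libraries of the series (10 mice on each side, 5 females and 5 males). A further 30 libraries of the same tissue and age entered the same model and served as reference. These were LacQ140 (the same genotype as LacQ140_2M, on IPTG throughout, so that m*Htt* was never lowered), LacQ140_A (the same genotype, never on IPTG, m*Htt* lowered from conception) and WT + IPTG (WT on IPTG throughout), with 10 mice each. The repressor acts on the expanded allele in the whole body and leaves the normal allele in place, so the model lowers m*Htt* globally and not in neurons alone. The study describes this lowering as moderate, so that m*Htt* expression was reduced and not abolished.

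Huntingtin is a large scaffold protein, and an expanded glutamine tract in it causes Huntington disease. The striatal spiny projection neurons are the most affected cells: the indirect-pathway neurons express *Penk*, *Drd2* and *Adora2a*, the direct-pathway neurons *Drd1*, *Tac1* and *Pdyn*, and both depend on cAMP and DARPP-32 signalling. In mice with expanded *Htt*, a fall of these identity genes and a rise of normally silent or low genes is a known feature of the striatum. In the *Lac* system, IPTG releases the repressor from the operators around the *Htt* start site, and removing IPTG allows repression.

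Summed estimated counts ranged from 45363140 to 58288099 in the LacQ140_2M libraries and from 45018797 to 62867757 in the WT libraries. The sex label matched the expression of sex-linked genes in 50 of 50 libraries. The summed level of 8 spiny projection neuron markers was 5618 to 6324 CPM (counts-per-million units of the scaled library size) in LacQ140_2M and 5345 to 8394 CPM in WT, so both groups had the RNA of the labelled tissue. The medians were 5928 CPM in LacQ140_2M and 7121 CPM in WT. The lowest WT value was that of male 5, and the next lowest WT mouse, at 6488 CPM, was above every LacQ140_2M mouse. Summed oligodendrocyte markers were 10924 to 12956 CPM in LacQ140_2M and 11066 to 15969 CPM in WT. Because these were bulk samples, fewer cells of a type and less RNA per cell could not be told apart. The 5 male WT libraries stood apart for several genes that respond to glucocorticoids or serve cholesterol synthesis. *Sult1a1*, a sulfotransferase, was at 8.90 to 15.2 CPM in male WT mice and at 23.3 to 33.7 CPM in female WT mice, and the male WT range lay below that of the LacQ140_2M males (27.9 to 36.8 CPM). *Angptl4*, a secreted inhibitor of lipoprotein lipase, was at 1.31 to 3.73 CPM in male WT mice, 6.26 to 10.7 CPM in female WT mice and 7.66 to 14.6 CPM in LacQ140_2M males. Counts are therefore also given without the male WT libraries and with WT + IPTG in place of WT.

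At 6 months, 335 of 35808 genes differed between LacQ140_2M and WT striatum, with 131 higher and 204 lower in LacQ140_2M. A gene was called when edgeR's quasi-likelihood test gave an adjusted p under 0.05 (Benjamini-Hochberg) and the fitted change was at least 20%. These calls were 0.936% of the genes tested (0.366% risen and 0.57% fallen). The changes were small, with a median size of 0.45 on the log2 scale, and 7 of the called genes with a mean of at least 1 CPM changed by 1 or more on that scale. The values of all 10 LacQ140_2M mice lay outside the WT range for 21 called genes, against 25 of all genes tested (0.0698%). Of those 21 genes, 18 had a mean of at least 1 CPM, of which 5 rose and 13 fell.

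How many genes were called depended on which control mice were used. LacQ140_2M mice had received IPTG for part of their life and WT mice had not, and IPTG alone was compared in WT + IPTG against WT, which gave 209 called genes (0.584%) with the same WT mice as control. Without the 5 male WT libraries, and with sex in the model, 58 of 35541 genes were called (0.163%; 0.0478% risen and 0.115% fallen), and 52 of the 335 were among them (17 risen, 35 fallen). With WT + IPTG as the control, 383 genes were called (1.07%; 0.517% risen and 0.553% fallen), and 103 of the 335 were among them (50 risen, 53 fallen), while 24 of the 335 had the opposite sign. Against WT, against WT + IPTG and without the male WT libraries alike, 39 genes were called, 14 of which rose and 25 fell. The leading genes described in the next 3 paragraphs belong to these 39 unless stated otherwise. Against WT without the LacQ140_2M male 3, 222 genes were called.

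Genes that fell included several that also fell in LacQ140 mice, in which m*Htt* was never lowered. *Gpx6* (glutathione peroxidase 6, chr13:21312125-21319624, GRCm38) was at 9.17, 12.1 and 14.3 CPM (lowest, median and highest) in WT mice and at 4.07, 6.25 and 8.58 CPM in LacQ140_2M mice. The groups did not overlap, and the gene fell by 0.98 ± 0.148 on the log2 scale (SE, n = 10 per group, edgeR adjusted p = 1.6e-05). *Ddit4l*, an inhibitor of mTORC1 signalling (chr3:137621612-137628333), was at 30.4, 33.5 and 40.2 CPM in WT mice and at 16.9, 21.4 and 24.2 CPM in LacQ140_2M mice. It fell by 0.70 ± 0.093 (edgeR adjusted p = 8.1e-07), again with no overlap. *Plk5*, a polo-like kinase family member expressed in the brain, was at 14.5, 21.7 and 25.3 CPM in WT and at 10.4, 13.2 and 14.2 CPM in LacQ140_2M mice. It fell by 0.75 ± 0.105 (edgeR adjusted p = 3.4e-06), and every LacQ140_2M mouse lay below every WT mouse.

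*Penk*, the precursor of the enkephalins and the main neuropeptide gene of indirect-pathway neurons, was the most abundant gene with separated groups. WT mice were at 1590, 1888 and 2163 CPM and LacQ140_2M mice at 1308, 1455 and 1562 CPM, a fall of 0.39 ± 0.053 (edgeR adjusted p = 1.4e-06). *Rasl10a*, a small GTPase of the Ras family, was at 7.61 to 11.1 CPM in WT and 4.64 to 7.46 CPM in LacQ140_2M mice (log2 change -0.66, edgeR adjusted p = 4.9e-06). *Sbsn*, which encodes the secreted protein suprabasin, was at 16.1 to 20.8 CPM in WT and 10.7 to 13.7 CPM in LacQ140_2M mice (-0.58, edgeR adjusted p = 1.9e-07). Both pairs of ranges were separate. *4930539E08Rik*, a gene without an established role, fell by 0.66 (edgeR adjusted p = 8.6e-05) with no overlap. *Cpne9*, a calcium-dependent membrane-binding copine, fell by 0.62 (edgeR adjusted p = 0.0017), with 1 or more mice of each group in the range of the other. *Egfl8* and *Nupr1* also fell without overlap (by 0.52 and 0.41), but against WT + IPTG their changes were -0.20 and -0.03 and were not called (edgeR adjusted p = 0.43 and 0.94).

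Fewer genes rose than fell, and the risen genes with separate groups were of low level. *Tmc3*, a member of the transmembrane channel-like family (chr7:83584927-83625614), was at 1.97, 2.69 and 3.82 CPM in WT mice and at 5.01, 6.24 and 7.55 CPM in LacQ140_2M mice. *Acy3*, an aminoacylase (chr19:3986570-3990007), was at 1.24, 1.72 and 2.16 CPM in WT mice and at 2.98, 3.82 and 4.49 CPM in LacQ140_2M mice. Neither gene had overlapping groups, and their log2 changes were 1.16 ± 0.106 and 1.14 ± 0.105 (edgeR adjusted p = 1.4e-11 and 1.6e-11). *Zfp488*, a zinc finger regulator known from oligodendrocytes, rose from 5.22 to 7.73 CPM in WT to 8.00 to 10.2 CPM (0.56 ± 0.071, edgeR adjusted p = 2.7e-07). *Sox11*, a transcription factor of immature neurons, rose from 6.60 to 9.24 CPM to 9.28 to 13.3 CPM (0.43 ± 0.080, edgeR adjusted p = 7.7e-04). *Osbpl5*, a lipid transfer protein, rose from 12.7 to 16.4 CPM to 16.7 to 21.1 CPM (0.40 ± 0.059, edgeR adjusted p = 1.6e-05). These 3 genes also had separate ranges. *Polr2a*, which encodes the catalytic subunit of RNA polymerase II and was chosen after its values were seen, was at 44.2 to 71.6 CPM in WT and 65.8 to 106 CPM in LacQ140_2M mice and rose by 0.60 (edgeR adjusted p = 3.6e-07).

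**Figure D1:**
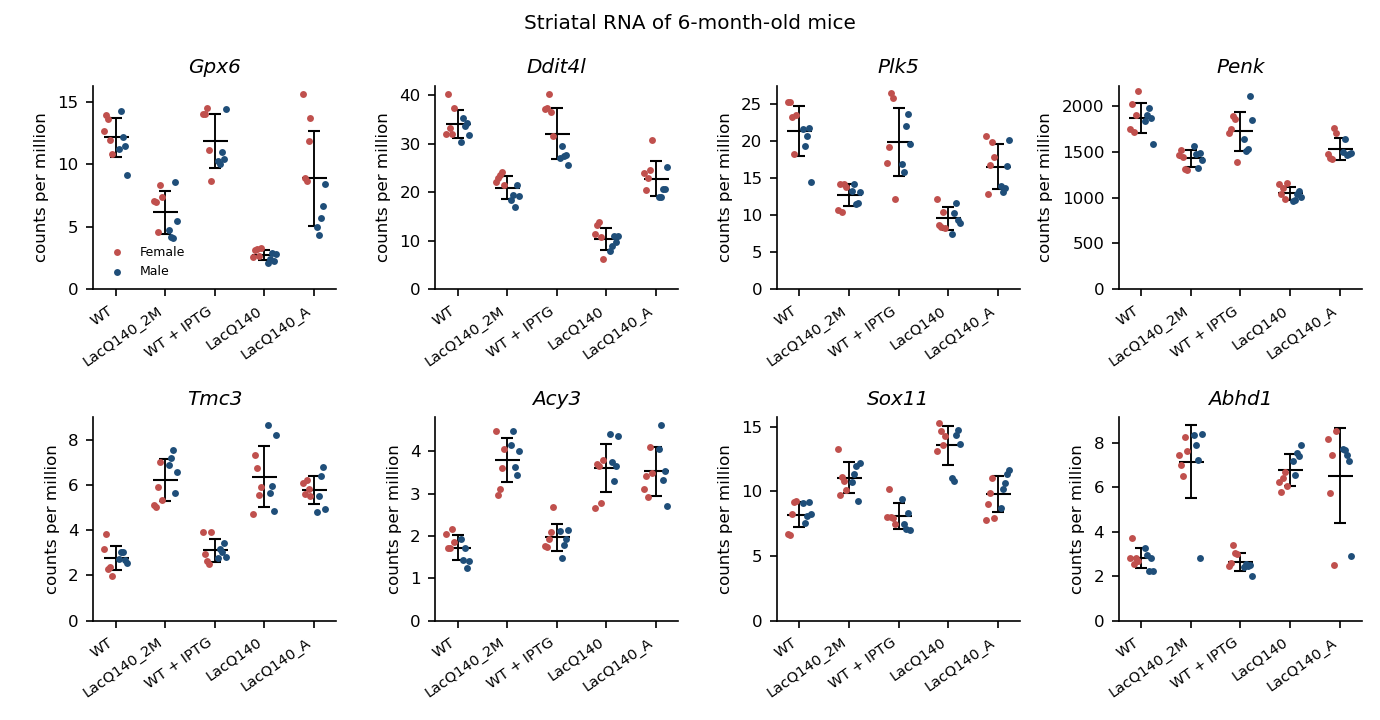
Level of 8 genes (CPM, linear axis from 0) in each of the 50 mice at 6 months, by group, with females in red and males in blue. The long bar is the mean and the whiskers 1 SD (n = 10 per group). The LacQ140_2M values of *Gpx6*, *Ddit4l*, *Plk5* and *Penk* lie below all WT values and those of *Tmc3*, *Acy3* and *Sox11* above them, while 1 male LacQ140_2M mouse lies at the WT level of *Abhd1* (2.80 CPM).

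The promoter of *Htt* carries the operators in these mice, and cAMP signalling is prominent in spiny neurons, so the RefSeq sequence before the start of *Htt* and of 3 called genes is shown for the cAMP response element. These are the reference sequences of GRCm38.p6, 5′ to 3′ on the strand of the gene and ending before the annotated start, and they hold no operator or repeat. Capitals mark the element TGACGTCA, which reads the same on both strands. The stretches are chr5:34761490-34761739 (plus strand) for *Htt*, chr10:41072291-41072540 (minus strand) for *Gpr6*, an orphan receptor of indirect-pathway neurons, chr13:21311953-21312124 (plus strand) for *Gpx6* and chr7:83584681-83584926 (plus strand) for *Tmc3*.
Htt: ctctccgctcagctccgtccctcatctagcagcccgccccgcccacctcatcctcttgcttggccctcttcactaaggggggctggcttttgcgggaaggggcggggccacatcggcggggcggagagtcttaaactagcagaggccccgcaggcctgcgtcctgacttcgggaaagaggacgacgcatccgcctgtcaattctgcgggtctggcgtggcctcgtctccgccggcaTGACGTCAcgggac
Gpr6: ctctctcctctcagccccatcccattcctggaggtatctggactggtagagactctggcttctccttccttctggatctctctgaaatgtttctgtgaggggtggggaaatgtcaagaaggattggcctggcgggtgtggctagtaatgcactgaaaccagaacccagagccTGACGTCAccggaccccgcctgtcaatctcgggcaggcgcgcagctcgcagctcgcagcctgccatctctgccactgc
Gpx6: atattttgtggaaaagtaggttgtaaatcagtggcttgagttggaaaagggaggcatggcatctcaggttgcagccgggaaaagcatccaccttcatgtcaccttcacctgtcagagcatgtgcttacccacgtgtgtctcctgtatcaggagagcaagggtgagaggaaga
Tmc3: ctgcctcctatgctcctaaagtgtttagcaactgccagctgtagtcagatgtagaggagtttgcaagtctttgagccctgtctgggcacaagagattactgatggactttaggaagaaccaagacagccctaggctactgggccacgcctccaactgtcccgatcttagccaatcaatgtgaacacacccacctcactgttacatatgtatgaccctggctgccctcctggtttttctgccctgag

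The element was present before *Htt* and *Gpr6*, and these letters were not in the windows of *Gpx6* and *Tmc3*. Among 141 fallen genes with a sequence of 250 bases, 4 held it (2.84%; *Dio2*, *Gm10687*, *Gpr6* and *Htt*), and among 71 risen genes 2 held it (2.82%; *Errfi1* and *Galnt11*). The share among all 27025 genes with such a sequence was 1.77% (478 genes). Its core CGTCA, on either strand and overlapping the full element, was in 19.9% of the fallen, 22.5% of the risen and 19.8% of all genes. These matches describe letters in a window and not bound sites.

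Of 6 genes of the indirect pathway, 3 fell (50%; *Penk*, *Adora2a* and *Gpr6*), and the list's median change was -0.26. Of 8 spiny projection neuron markers, which share genes with that list, 2 fell (25%; *Penk* and *Adora2a*). Their median was -0.19, with 7 of 8 below 0. By comparison, 0.57% of all genes tested fell, and 1.85% of genes with a mean of at least 1 CPM over LacQ140_2M and WT were called. *Adora2a*, an adenosine receptor, was at 272, 399 and 455 CPM in WT and at 269, 295 and 338 CPM in LacQ140_2M mice, a fall of 0.38 (edgeR adjusted p = 0.0023) with overlapping ranges. *Gpr6* was at 78.8 to 122 CPM in WT and 71.2 to 88.9 CPM in LacQ140_2M mice (-0.34, edgeR adjusted p = 0.0038). Against WT + IPTG, neither was called, with changes of -0.10 for *Adora2a* (edgeR adjusted p = 0.64) and -0.20 for *Gpr6* (edgeR adjusted p = 0.14). *Penk* was called there as well (-0.27, edgeR adjusted p = 0.002). None of 9 direct-pathway genes was called, and their median change was 0.01. *Drd1*, the D1 dopamine receptor, was at 228 to 305 CPM in WT and 203 to 254 CPM in LacQ140_2M mice, and its change of -0.20 passed the adjusted p (0.044, edgeR) but not the bound of 20%.

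Of 6 synaptic genes that the study's text names as examples (*Pde10a*, *Drd1*, *Scn4b*, *Adcy5*, *Drd2* and *Ppp1r1b*), 0 were called by edgeR (median -0.20), with *Drd1* past the adjusted p alone. *Penk*, which belongs with them in the study, was called, as described above. *Pde10a*, a cyclic nucleotide phosphodiesterase of spiny neurons, was at 902 to 1482 CPM in WT and 854 to 1190 CPM in LacQ140_2M mice (-0.17 ± 0.078, edgeR adjusted p = 0.36). Changes of *Scn4b*, *Adcy5*, *Drd2* and *Ppp1r1b* (DARPP-32) lay between -0.24 and -0.18 and did not pass the test. Of 20 genes of the cAMP cascade, *Arpp19*, a phosphatase regulator, and *Ppp1r1a*, an inhibitor of protein phosphatase 1, fell (by 0.35 and 0.38, edgeR adjusted p = 0.0029 and 0.0032), and the list's median was -0.14. *Ppp1r1a*, and *Oprk1* and *Htr4* below, are not among the 39 genes. None of 20 genes of ion channels and calcium stores was called (median -0.05). Of 22 receptors and neuropeptides, *Oprk1*, the kappa opioid receptor, rose by 0.27 (edgeR adjusted p = 0.04) and *Htr4*, a serotonin receptor, fell by 0.72 (edgeR adjusted p = 3.2e-04). Of 15 striatal transcription factors, *Rxrg*, a retinoid X receptor, fell by 0.35 (edgeR adjusted p = 0.012), while the list's median was 0.07 with 4 of 15 below 0. Against WT + IPTG the change of *Rxrg* was -0.07.

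The remaining lists held few called genes. Immediate early genes were lower in LacQ140_2M for 20 of 20 members (median -0.27), of which *Jun* and *Ier5* fell by 0.39 and 0.35. Without the male WT mouse 3, whose *Jun* level of 36.1 CPM was the highest, the change of *Jun* was -0.31 (edgeR adjusted p = 0.063). Against WT + IPTG, the changes of *Jun* and *Ier5* were -0.13 and 0.01 and were not called (edgeR adjusted p = 0.62 and 1). Of 15 genes of the mTOR brakes and the stress response, *Ddit4l* alone was called, and of 8 glutathione peroxidases, *Gpx6* alone. No member was called among 28 developmental transcription factors, 11 neurotrophin genes, 11 neurofilament and axonal cytoskeleton genes, 15 chaperones of the endoplasmic reticulum (median -0.09), 17 clock genes, 30 respiratory chain genes (median -0.11, 26 below 0), 19 polycomb genes and 12 mismatch repair genes (median 0.08). Of 8 oligodendrocyte markers, 8 were lower (median -0.17) and 1 was called by edgeR. No marker of astrocytes, microglia, endothelium, oligodendrocyte precursors, ependyma, choroid plexus, cortical pyramidal neurons, interneurons, thalamus, blood or pituitary was called. For comparison, 1.85% of all genes with a mean of at least 1 CPM over LacQ140_2M and WT were called, and the median change over all genes was 0.00. Of the 14699 genes at that level, 7566 had a change below 0.

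**Figure D2:**
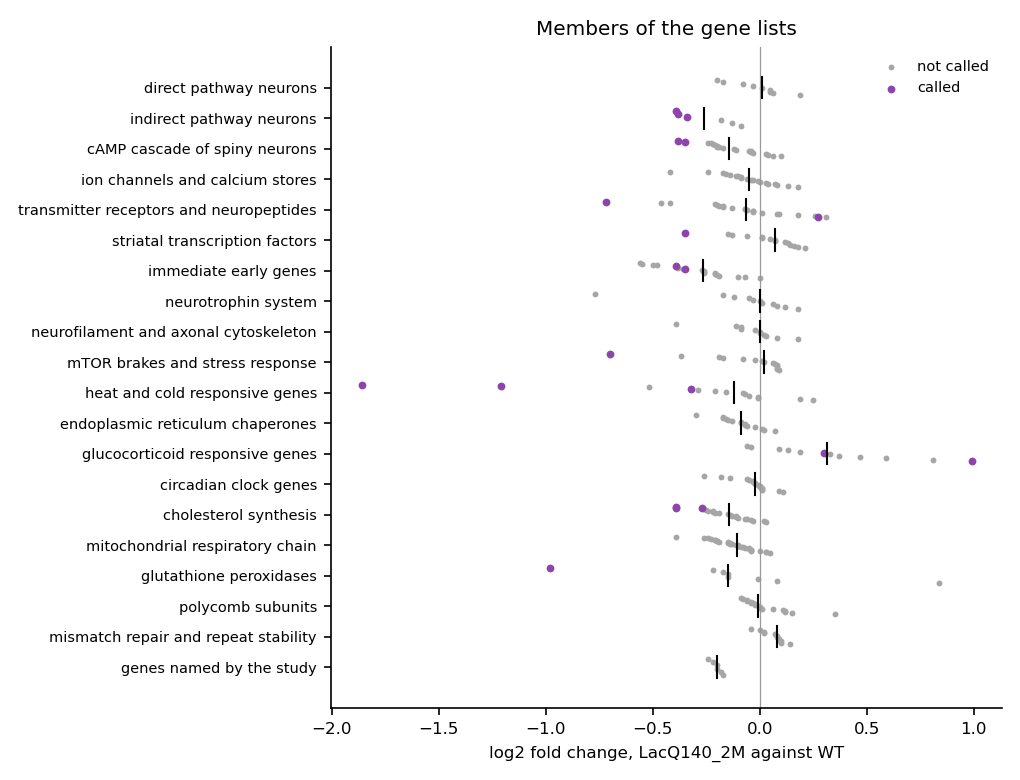
Log2 fold change between LacQ140_2M and WT for each tested member (point) of 20 gene lists (rows), with called members in purple and the median of each list as a black bar. The called members lie mostly below 0, and the heat-responsive *Hspa1b* (-1.86) and the glucocorticoid-responsive *Zbtb16* (0.99) are the called members with the largest changes in each direction.

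To place these changes against the full disease change, LacQ140 was compared with WT + IPTG, which used none of the 20 mice above. There, 2840 genes were called (7.93% of 35808), of which 1423 had risen (3.97%) and 1417 had fallen (3.96%). Of the 335 genes called in LacQ140_2M, 174 were called in the same direction in LacQ140 (63 risen and 111 fallen), which was 51.9% of the 335 and 6.13% of the 2840. Without the male WT libraries the latter share was 1.72%. Of the 39 genes called with each control, 37 were called in the same direction in LacQ140, with the caution that 1 of those controls was the WT + IPTG group that LacQ140 was compared with. A further 157 were not called in LacQ140 (64 risen and 93 fallen), and 4 were called in the opposite direction. Those 4, named after their values were seen, were *Ucp2*, *Zbtb16*, *Heph* and *Tlr7*, which rose in LacQ140_2M (log2 changes 0.41, 0.99, 0.37 and 0.57) and fell in LacQ140 (-0.33, -0.75, -0.32 and -0.41). Against WT + IPTG, all 4 had a negative change in LacQ140_2M.

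Across the 2840 genes, the change in LacQ140_2M had the sign of the disease change for 2175 (76.6%), beside 63.2% of all 14724 genes with a mean of at least 1 CPM over the 4 groups of both comparisons. Risen disease genes had a median change of 0.43 in LacQ140 and 0.10 in LacQ140_2M, and fallen ones -0.42 and -0.12. LacQ140_A, compared with the same WT mice, gave 0.15 and -0.14. Over 2277 of these genes with a mean of at least 1 CPM over the same 4 groups, the least-squares slope through 0 of the change in LacQ140_2M on the change in LacQ140 was 0.27 (Pearson r = 0.62 across genes, which are not independent replicates), and over all 2840 genes it was 0.18 (r = 0.42). The difference of both changes was called for 451 genes (1.26%), 377 of them among the 2840. Among 71 risen and 195 fallen genes of a signature shared by several HD mouse models, 16 (22.5%) and 42 (21.5%) were called in the listed direction. Over all genes tested, 0.366% rose and 0.57% fell. The signature medians were 0.25 and -0.22 in LacQ140_2M beside 0.53 and -0.46 in LacQ140. The signature was established earlier in other HD models, and the study describes its genes as changed in LacQ140 mice as well, so its LacQ140 medians are given as a description.

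Genes with a retained change differed in how much of it was left. *Gpx6* changed by -2.11 ± 0.160 in LacQ140 and by -0.98 in LacQ140_2M, and the difference passed the test (edgeR adjusted p = 0.0021). *Ddit4l* changed by -1.63 and -0.70 (edgeR adjusted p of the difference = 4.1e-05), *Cpne9* by -1.45 and -0.62 (0.0059, edgeR adjusted) and *Penk* by -0.72 and -0.39 (0.011, edgeR adjusted). For other genes no difference between both changes was detected. *Tmc3* changed by 1.03 and 1.16 (edgeR adjusted p = 0.84), *Acy3* by 0.88 and 1.14 (0.5), *Plk5* by -1.06 and -0.75 (0.38), *Rasl10a* by -0.72 and -0.66 (0.99) and *Osbpl5* by 0.40 in both (1). *Slc45a3*, a sugar transporter, rose by 1.05 in LacQ140 and 0.57 in LacQ140_2M, and its difference was not called. *Gm48678*, which is not among the 39 genes, fell by 1.82 and 0.65, and its difference was called.

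**Figure D3:**
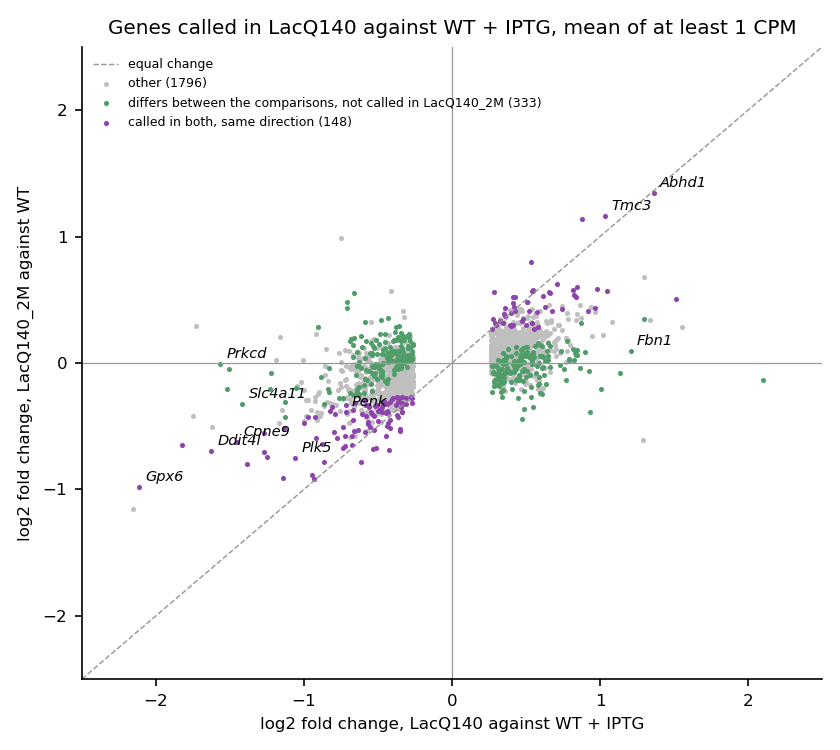
Log2 fold change of LacQ140_2M against WT (vertical) and of LacQ140 against WT + IPTG (horizontal) for 2277 genes called in the latter comparison with a mean of at least 1 CPM, of which 1 lies outside the axes. Purple points are 148 genes called in both in the same direction, green points 333 genes not called in LacQ140_2M whose changes differ, grey points the other 1796, and the dashed line marks equal change. Most points lie closer to the horizontal zero line than to the dashed line.

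At the other end were genes with a large disease change and no call in LacQ140_2M, whose difference was called. *Sfmbt2*, a polycomb-associated gene, changed by 1.30 in LacQ140 and 0.35 in LacQ140_2M (edgeR adjusted p of the difference = 6.4e-04). *Fbn1*, which encodes fibrillin-1 of the extracellular matrix, changed by 1.21 and 0.09 (3.6e-04, edgeR adjusted), and *Slc4a11*, a solute carrier, by -1.42 and -0.33 (5.1e-05, edgeR adjusted). In LacQ140_2M their ranges were 1.75 to 2.58, 3.62 to 6.86 and 4.66 to 7.91 CPM, each overlapping WT. *Slc4a11* was called in females alone (-0.74, edgeR adjusted p = 0.0032) and changed by 0.11 in males. *Amn*, *AC087559.2*, *Tmprss6* and *Wnt8b* had disease changes of 1.13, 2.10, -1.52 and -1.50, and changes of -0.08, -0.14, -0.20 and -0.05 in LacQ140_2M. For *Tmprss6*, a called fall in females (-0.98, edgeR adjusted p = 0.0057) stood beside a change of 0.67 in males (edgeR adjusted p = 0.067). *Prkcd*, a protein kinase C that is also abundant in thalamus, changed by -1.57 in LacQ140 and -0.01 in LacQ140_2M. The sum of the thalamic markers was 18.5 to 205.5 CPM in WT + IPTG, 15.3 to 64.6 CPM in WT and 18.3 to 48.9 CPM in LacQ140_2M, and its part in the result for *Prkcd* was not tested. All 4 thalamic markers fell in LacQ140 against WT + IPTG (median -1.36), where 3.96% of all genes fell. Of 5 cortical pyramidal markers, 1 fell there (median -0.92). The WT + IPTG male 5 reached 724.5 CPM for the summed choroid plexus markers. The 2840 disease genes, the score below and WT + IPTG as a control rest on these libraries, and the part of such RNA in them was not tested.

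A single score per mouse summarised the 2840 genes as the mean log2 CPM of the risen minus that of the fallen disease genes, with the WT mean set to 0. The genes were chosen on LacQ140 and WT + IPTG mice, so the scores of those groups are shown as a description. WT mice scored from -0.201 to 0.300 (median 0.009) and LacQ140_2M mice from 0.056 to 0.418 (median 0.280), with means of 0.000 ± 0.169 and 0.262 ± 0.103 (SD, n = 10 each). The groups overlapped. LacQ140_A mice scored 0.323 ± 0.102, LacQ140 mice 0.769 ± 0.139 and WT + IPTG mice -0.267 ± 0.120 (SD, n = 10 each). The lowest LacQ140 mouse, at 0.610, was above the highest LacQ140_2M mouse.

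**Figure D4:**
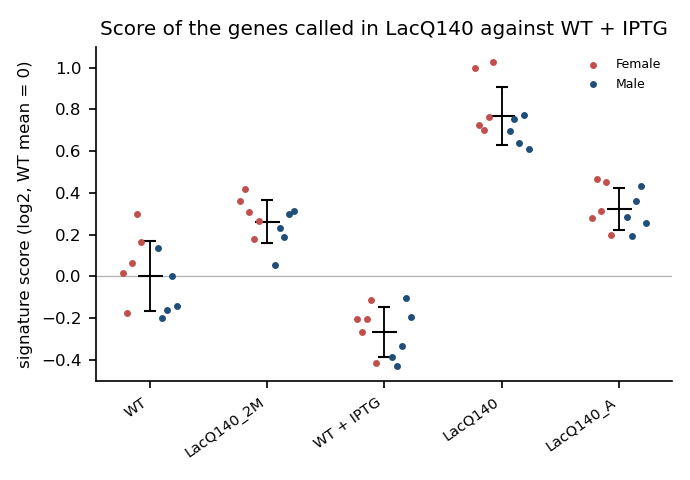
Score of the disease genes (log2, WT mean = 0) in each of the 50 mice by group, with females in red and males in blue, the mean as a bar and 1 SD as whiskers (n = 10 per group). LacQ140_2M mice (0.056 to 0.418) overlap WT mice (-0.201 to 0.300) and lie below all LacQ140 mice (0.610 to 1.027).

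Over the 335 genes, which were called on both sexes together, the median size of the change was 0.38 in females and 0.53 in males. Alone, females gave 52 called genes (0.145%) and males 453 (1.27%). The difference between the sexes itself was called for 45 genes (0.126%). *Angptl4* changed by -0.12 in females and 2.02 in males (edgeR adjusted p of the difference = 5.9e-06), and *Sult1a1* by -0.03 and 1.58. The levels of the male WT mice given above moved with the differences of *Angptl4* and *Sult1a1*, and their part was not tested, while *Tmprss6* and *Slc4a11* had their called change in females. With WT + IPTG as the control, 0 genes were called for a sex difference by edgeR, with 877 genes at an unadjusted p under 0.05.

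Among glucocorticoid, cholesterol and heat shock genes, the levels in male WT mice stood beside several calls, and their part was not tested. Of 12 glucocorticoid-responsive genes, *Zbtb16* and *Errfi1* rose (0.99 and 0.30, edgeR adjusted p = 0.035 and 0.043), and the median was 0.32. Against WT + IPTG the changes of *Zbtb16* and *Errfi1* had the opposite sign. *Zbtb16* was at 4.22 to 6.59 CPM in male WT, 6.66 to 15.3 CPM in female WT and 9.16 to 30.5 CPM in male LacQ140_2M mice, and WT + IPTG males were at 15.5 to 33.6 CPM. Of 22 cholesterol synthesis genes, 20 were lower and *Msmo1*, *Idi1* and *Hmgcs1* fell (by 0.39, 0.39 and 0.27). *Hmgcs1*, which makes the precursor of mevalonate, was at 138 to 172 CPM in male WT, 101 to 124 CPM in female WT and 87.8 to 116 CPM in male LacQ140_2M mice. Against WT + IPTG these 3 genes changed by -0.05, -0.09 and -0.06. Of 14 heat- and cold-responsive genes, *Hspa1b*, *Hspa1a* and *Dnajb1*, all chaperones of the heat shock response, fell (by 1.86, 1.21 and 0.32). Without the male WT mouse 3, which had the highest levels of all 3, their changes were -0.83, -0.44 and -0.21 and none was called (edgeR adjusted p = 0.12, 0.38 and 0.1).

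**Figure D5:**
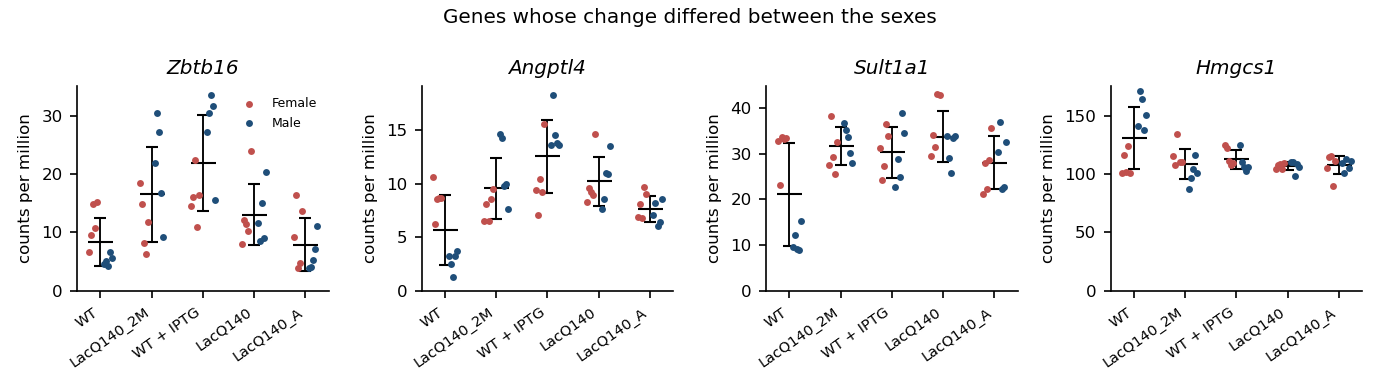
Level of 4 genes (CPM, linear axis from 0) in each of the 50 mice by group, with females in red, males in blue, means as bars and 1 SD as whiskers (n = 10 per group). The 5 male WT mice are the lowest WT mice for *Zbtb16*, *Angptl4* and *Sult1a1* and the highest for *Hmgcs1*.

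*Htt* itself (chr5:34761740-34912534), counted over both alleles together, was at 90.4, 113 and 137 CPM in WT and at 73.2, 91.4 and 102 CPM in LacQ140_2M mice. It fell by 0.39 ± 0.067 (edgeR adjusted p = 2.9e-04), with overlapping ranges. The means were 102 CPM in LacQ140, 87.7 CPM in LacQ140_A and 111 CPM in WT + IPTG. Against WT + IPTG the change was -0.32 (edgeR adjusted p = 0.0044), and without the male WT mice -0.28 (edgeR adjusted p = 0.18). The values do not separate the normal from the expanded transcript.

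A larger share of the genes near *Htt* was called than elsewhere, a difference that was not tested. Of 368 genes within 10 Mb of *Htt*, 16 were called (4.35%; 11 risen and 5 fallen), against 0.917% on the rest of chromosome 5. Sequence that flanks the targeted allele is inherited with it and was not analysed here, so flanking sequence and the *Htt* genotype cannot be told apart for these genes. *Abhd1*, a hydrolase 3.81 Mb from the start of *Htt* (chr5:30950066-30955091), was at 2.24, 2.83 and 3.71 CPM in WT and 2.80, 7.53 and 8.39 CPM in LacQ140_2M mice, a rise of 1.34 ± 0.145 (edgeR adjusted p = 3.8e-09). The lowest LacQ140_2M value was that of the male mouse 4, while the other 9 mice were at 6.49 to 8.39 CPM. In the cortex of the same mice, male 4 was at 1.79 CPM, the other 9 at 5.17 to 7.11 CPM and the highest WT mouse at 2.29 CPM. *Galnt11*, a glycosyltransferase, *Dpysl5*, a neuronal cytoskeletal regulator, and *Gm6089*, all named after their values were seen, showed the same mouse in the WT range and the other 9 above it. Its levels were 35.8, 29.0 and 0.136 CPM, and the lowest of the other 9 were 41.1, 34.2 and 0.395 CPM. Away from *Htt*, 27 of 319 called genes had the other 9 mice outside the WT range, and male 4 was inside it for 6 of them. Its striatal *Tmc3* and *Gpx6* levels were 5.64 and 8.58 CPM, the latter the highest of the LacQ140_2M mice. Its striatal *Htt* level of 91.8 CPM lay in the range of the other 9 mice and in that of WT. In cortex, its *Htt* level of 94.2 CPM lay above the other 9 (highest 91.9 CPM) and inside the WT range (90.9 to 145 CPM).

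LacQ140_2M and LacQ140_A were compared directly. The groups differed in whether m*Htt* had been expressed until 2 months and in exposure to IPTG until then, which cannot be told apart here. In all, 9 genes were called (0.0251%), 2 higher (0.00559%) and 7 lower (0.0195%) in LacQ140_2M, and 4 without the LacQ140_2M male 3. Of the 7 lower genes, *Gh*, *Prl* and *Cga* are pituitary hormone genes, and the sum of the pituitary markers reached 116.5 CPM in LacQ140_A and was 0.86 to 3.1 CPM in LacQ140_2M. *Gh* had a median of 0.477 CPM and a highest value of 43.9 CPM in LacQ140_A. *Rasl10a*, *4930539E08Rik* and *Sec14l3*, a lipid-binding protein, were lower in LacQ140_2M by 0.48, 0.52 and 0.54 on the log2 scale, and these genes had fallen against WT as well. *Ripor2* and *P2ry14*, a nucleotide sugar receptor, were higher by 0.32 and 0.42. Set against the same WT mice, *Gpx6* changed by -0.46 in LacQ140_A and -0.98 in LacQ140_2M, *Ddit4l* by -0.58 and -0.70, *Tmc3* by 1.05 and 1.16 and *Penk* by -0.29 and -0.39. None of these genes was among the 9 called in the direct comparison.

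In the cortex of the same mice, 40 genes were called between LacQ140_2M and WT (0.111%), 10 risen (0.0278%) and 30 fallen (0.0834%), and 13 of them were called in the striatum in the same direction (3 risen and 10 fallen). These 13 were 3.9% of the striatal and 32.5% of the cortical calls. *Htt* fell by 0.68 ± 0.073 (edgeR adjusted p = 7.5e-09) and *Abhd1* rose by 1.69 ± 0.176 (edgeR adjusted p = 6.4e-09). The leading striatal genes did not pass the test in cortex: *Gpx6* changed by -0.66 (edgeR adjusted p = 0.8), *Ddit4l* by -0.01 (1) and *Penk* by -0.02 (1). The called cortical genes included neutrophil genes (*Camp*, *Ngp*, *S100a8* and *S100a9*, -7.48 to -5.34), which were high in the cortex of 1 WT mouse (male 4, with *S100a8* at 137 CPM and the next WT mouse at 0.55 CPM). Without that mouse 26 genes were called, and without the WT females 4 and 5 the counts were 86 and 64.

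At 12 months, other mice of the same groups (10 LacQ140_2M and 9 WT) gave 1446 called genes in the striatum (4.09%), 691 risen (1.95%) and 755 fallen (2.13%). Of the 335 genes called at 6 months, 155 were called at 12 months, 155 of them in the same direction (56 risen and 99 fallen), which was 46.3% of the 6-month and 10.7% of the 12-month calls. *Gpx6* changed by -2.47, *Ddit4l* by -1.62, *Penk* by -0.91, *Slc45a3* by 1.45 and *Tmc3* by 1.29 at that age. *Pde10a*, *Drd1*, *Scn4b*, *Adcy5*, *Drd2* and *Ppp1r1b*, which were not called at 6 months, changed by -0.69, -0.51, -0.85, -0.49, -0.53 and -0.62. *Zbtb16*, *Angptl4* and *Oprk1* changed by -0.43, -0.08 and -0.12 and were not called. The 12-month libraries were counted in another table, so age and table cannot be told apart, and no test of the difference between the ages was made.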

How the data were processed

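RNA from the right striatum of single mice was sequenced by the authors, who deposited estimated counts per gene, not normalized, in 1 table per age. The submitters' processing notes name the build GRCm38, and the aligner and counting program are not given in the sources used here. Of the nonzero values, 33.74% were not whole, and all were rounded. Of 54532 gene IDs, 54495 matched GENCODE vM21, which gave names and positions. Genes with at least 1 count were tested (35808) with R 4.3.3 and edgeR 4.0.16 (TMM scaling, quasi-likelihood, two-sided, a mean per group over 50 libraries). A call needed an adjusted p under 0.05 and a change of at least 20%. DESeq2 1.42.0 was an alternative, with others given in the closing section, and the test was checked on simulated counts. CPM was computed on TMM-scaled library sizes, from totals of 39311796 to 63600086. P-values measure the spread among these mice. No 2 of the compared libraries were alike within sampling noise (225 pairs, smallest chi-square per degree of freedom 8.13).

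Members and gene lists were chosen with earlier results of these data known. Genes named in the text were *Htt*, 6 synaptic genes named as examples in the study's text, in each direction the 8 called genes with the largest change, a mean of at least 1 CPM and no overlap, the 4 genes with the largest disease change that were called in the same direction and the 4 that differed and were not called, the 2 with the smallest p for the sex, LacQ140_A and cortex comparisons, and up to 4 per list with the smallest p. Some genes that this rule or a list gives are not reported here. *Ucp2*, *Heph*, *Tlr7*, *Galnt11*, *Dpysl5*, *Gm6089*, *Sec14l3*, *Polr2a*, *Apod*, *Prl*, *Cga*, *Ripor2*, *P2ry14*, *Ngp*, *S100a8* and *S100a9* were added after their values were seen.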

Additional observations from a re-analysis of the deposited data

Results flagged for a closer look

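Among 150 sets of 10 values (a named gene in WT or in LacQ140_2M), 13 had a lowest or highest mouse whose gap to the next exceeded Dixon's 95% critical share of the range, while chance gives about 1 in 20 such sets. The male WT mouse 3 was far above the other WT mice for *Jun* (36.1 CPM), *Hspa1b* (29.3 CPM), *Hspa1a* (32.7 CPM) and *Dnajb1* (109 CPM). The female WT mouse 1 was far above the others for *Zfp488* (7.73 CPM), *Cpne9* (18.1 CPM) and *Prkcd* (48.0 CPM). Among LacQ140_2M mice, male 4 was far below the others for *Abhd1* (2.80 CPM), and male 1 was far above for *Gm48678* (3.84 CPM), *Gm26723* (0.0753 CPM) and *Apod*, a lipid carrier (1105 CPM). Male 5 was far above for *Gh* (1.38 CPM) and female 3 for *Msmo1* (93.1 CPM).

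The change between LacQ140_2M and WT differed between the sexes for 45 genes by a test of the difference itself (edgeR). Among named genes, the change in males minus that in females was 1.65 for *Tmprss6*, 0.85 for *Slc4a11*, 2.13 for *Angptl4*, 1.61 for *Sult1a1*, 1.96 for *Zbtb16*, -0.58 for *Msmo1* and -0.69 for *Hmgcs1* on the log2 scale. *Tmprss6* and *Slc4a11* had their called change in females. Levels of the male WT mice moved with the differences of *Angptl4*, *Sult1a1*, *Zbtb16* and *Hmgcs1*, and their part was not tested.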

How the results depend on the processing

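Leaving out the 5 female or male WT libraries and using WT + IPTG as the control were chosen after seeing the data. The 335 genes called between LacQ140_2M and WT became 598 without the female and 58 without the male WT libraries, and 222 to 492 when each mouse was left out in turn. DESeq2 gave 361 genes, edgeR with size factors of DESeq2 340, a model with sex 360, a filter on low counts (filterByExpr) 405, the length slope of each library as a covariate 307, the 2 groups alone 265, no bound on the change 415, and WT with and without IPTG pooled 318. The 9 genes called against LacQ140_A became 20 with DESeq2, 5 with only the groups compared, and 4 to 13 with each mouse left out. The 45 genes with a sex difference became 83 with DESeq2 and 0 with WT + IPTG as the control. The 451 genes with different changes became 711 with filterByExpr, 727 with the length slope, 294 without the male WT libraries, and 312 to 560 with each mouse left out. The retained share of the disease genes (6.13%) became 7.2% with filterByExpr, 8.87% with the pooled control, 7.67% and 1.72% without the female and male WT libraries, and 4.84% to 8.46% with each mouse left out. The 40 cortical genes became 26 to 86. The cause of these changes was not tested. The score and the 12-month count moved by less than their bounds under their alternatives.

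Replicate numbers did not pair the mice: same-numbered mice correlated by -0.320 to 0.218 (1 of 10 pairs above 0.1), and a model with the replicate block called 286 genes, 279 of them among the 335. The block gave 12 genes against LacQ140_A, 403 genes with different changes and a share of 5.57%.

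Directions of named genes held in most alternatives (39 reversed and 208 lost the call, of 2367 values), but most of these alternatives left out a single mouse. A change of control mattered more. With WT + IPTG as the control, 12 named genes reversed, 15 others lost the call, 4 gained it and 43 held. Without the male WT libraries, 1 reversed, 24 lost the call, 2 gained it and 47 held. With WT + IPTG as the control, changes reversed to -0.39 for *Angptl4*, -0.15 for *Apod*, 0.04 for *Cyp51*, -0.04 for *Errfi1*, 0.61 for *Gh*, -0.20 for *Heph*, 0.01 for *Ier5*, -0.14 for *Tlr7*, -0.26 for *Ucp2*, -0.40 for *Zbtb16*, 0.22 for *Amn* and 0.82 for *AC087559.2*. With the pooled control they were 0.06 for *Amn* and 0.27 for *AC087559.2*, and with the length slope 0.07 for *Amn*, 0.34 for *AC087559.2*, 0.06 for *Gm26723* and 0.12 for *Prkcd*. Without the female WT libraries they were 0.24 for *AC087559.2*, -0.11 for *Fbn1*, 0.46 for *Prkcd*, 0.51 for *Tmprss6* and 0.32 for *Wnt8b*, and without the male ones 0.02 for *Hmgcs1*. With each mouse left out, *Prkcd* ranged from -0.18 to 0.32, *Wnt8b* from -0.13 to 0.10 and *AC087559.2* from -0.31 to 0.00. Low counts limit genes under 1 CPM, whose changes were not described singly except where stated.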

Other observations

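LacQ140_A held 2 mice with *Abhd1* at 2.53 and 2.89 CPM, while its other mice were at 5.75 to 8.52 CPM. *Sult1a1*, *Angptl4* and *Apod* had their lowest WT values in males: for *Apod*, male WT mice were at 382 to 426 CPM, female WT mice at 612 to 818 CPM and male LacQ140_2M mice at 610 to 1105 CPM. Several of the 39 genes called with each control were not described above. *Car2* (carbonic anhydrase 2), *Mal* (a myelin protein), *Rbp4* (retinol-binding protein) and *Rgs14* (a regulator of G protein signalling) fell by 0.55, 0.33, 0.37 and 0.29, and *Kcng1*, a potassium channel subunit, rose by 0.56. These 5 genes were chosen after their values were seen.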
